A study of Mus musculus with 7 samples.

Results

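A set of 10 genes of ceramide and sphingolipid metabolism was followed in the livers of mice fed a high fat diet (HFD). They were chosen by symbol, namely Sptlc1, Sptlc2, Cers2, Cers4, Cers5, Cers6, Degs1, Sgms1, Smpd1 and Asah1, and all 10 were found among the 51426 genes counted. RNA was sequenced from liver tissue of 3 WT and 4 whole-body TET1 KO male mice (labelled TET-1-TKO), all given as C57BL/6J, which had all been on the HFD for 16 weeks from 8 weeks of age. The study asked how loss of TET1, an enzyme that oxidizes methylated cytosine in DNA, changes the fatty liver. The methods list B6;129S4-Tet1tm1.1Jae/J as the TET1 KO line and, as another whole-body strategy, floxed TET1 mice carrying a β-actin promoter driven Cre, while the labels do not say which of them was sequenced. The study's figure legend for the RNA sequencing writes the genotypes as TET1−/− and TET1wt/wt, and it writes the mice with the Cre differently. No chow-fed livers were part of the comparison, so every value describes mice on the HFD, and body weights of these mice were not analysed here. Library sizes lay between 15005277 and 22746138 counts and overlapped between the genotypes, and the 10 genes had between 20 and 6629 counts in a liver. Tet1 itself had no more than 4 counts in any liver, so these counts cannot check the knockout. Hepatocyte markers dominated all 7 livers, with summed levels of 66386 to 86873 CPM in WT and 79748 to 87335 CPM in TET1 KO livers. On the first principal component of all genes TET1 KO replicate 4 lay nearest to the WT livers.

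Ceramides are built at the endoplasmic reticulum. Serine palmitoyltransferase (Sptlc1 and Sptlc2) joins serine to palmitoyl-CoA, ceramide synthases (Cers) attach a second fatty acid, and dihydroceramide desaturase (Degs1) makes the final double bond. Each ceramide synthase prefers acyl chains of certain lengths, so that Cers2 makes very-long-chain ceramides, Cers4 prefers somewhat shorter ones, and Cers5 and Cers6 use palmitoyl-CoA. Sphingomyelin synthase (Sgms1) turns ceramide into sphingomyelin, acid sphingomyelinase (Smpd1) releases it again, and acid ceramidase (Asah1) splits it to sphingosine. Liver ceramides, those with a palmitoyl chain in particular, are known for their link to insulin resistance and steatosis in obesity.

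Of the 10 genes, only Cers6 passed the test. Its mRNA fell by 41.2% in TET1 KO livers, while Cers2, the most abundant ceramide synthase, had nearly the same level in both genotypes. With an adjusted p under 0.05 over 14754 genes (edgeR's quasi-likelihood test), 1 of the 10 was lower and 0 were higher, where 1.15% of all tested genes were lower and 0.874% were higher (2.02% in either direction). DESeq2 also called 1 lower and 0 higher, against 4.8% and 4.34% of the genes it tested (9.14% in either direction). At an unadjusted p under 0.05, 3 were lower and 1 was higher, where 12.7% and 13.6% of all tested genes were. The fitted log2 fold change of TET1 KO over WT (log2FC) was below 0 in 7 of the 10 and the median was -0.28, against 48.9% below 0 and a median of 0.01 over all tested genes. The median of the 10 lay between -0.41 and -0.17 when each mouse was left out in turn.

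**Figure D1:**
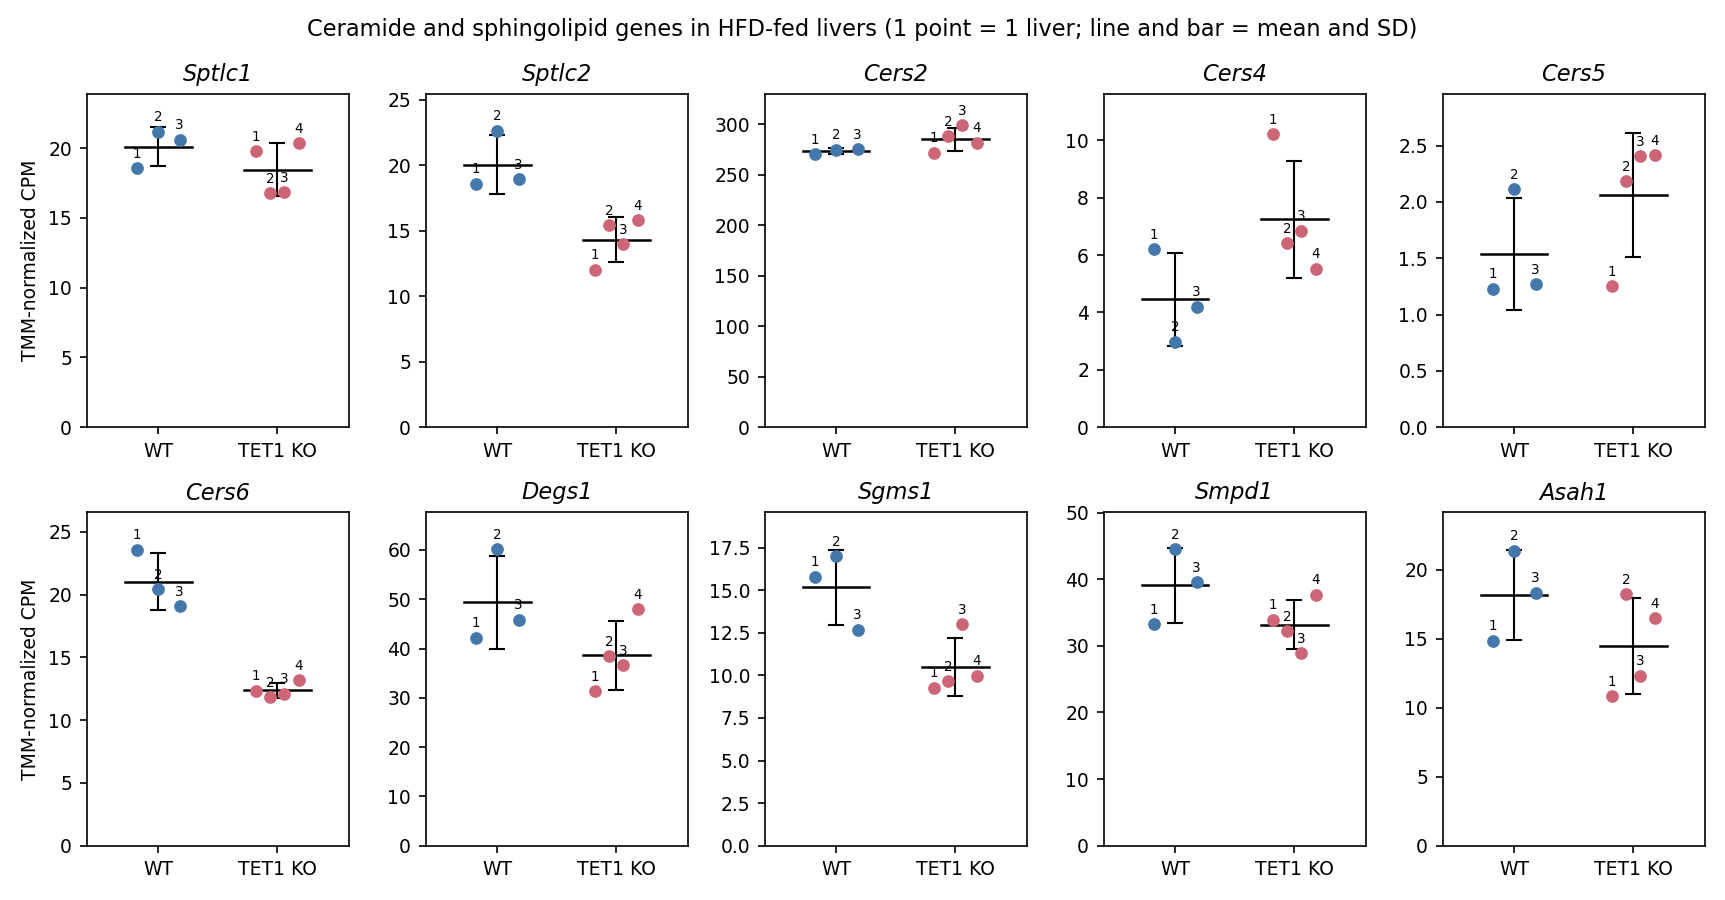
TMM-normalized CPM of each gene (y axis, from 0) in the 3 WT and 4 TET1 KO livers (x axis), where each point is a liver with its replicate number, the line is the mean and the bar the SD. In Cers6 and Sptlc2 all 4 TET1 KO livers sit below all 3 WT livers, and in the other panels the groups overlap.

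Cers6 (ENSMUSG00000027035, chr2:68861145-69114284 of GRCm38.p6) and Cers2 (ENSMUSG00000015714, chr3:95314771-95323599) are related enzymes with different chain preferences, and their promoters are shown because TET1 carries a domain that binds CpG sites and acts on methylated ones. The sequences are the 250 bases before a transcript start in RefSeq, on the plus strand, for Cers6 at chr2:68861191-68861440 and for Cers2 at chr3:95314940-95315189, with each CpG in capitals. Both stretches lie inside the span given for the gene, since its first annotated base is further upstream than the start used here.
Cers6: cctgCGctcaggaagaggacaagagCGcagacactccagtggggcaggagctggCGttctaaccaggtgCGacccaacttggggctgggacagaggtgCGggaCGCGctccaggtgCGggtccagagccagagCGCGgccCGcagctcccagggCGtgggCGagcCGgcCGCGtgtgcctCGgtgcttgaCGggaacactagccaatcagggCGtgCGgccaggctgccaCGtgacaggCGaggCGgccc
Cers2: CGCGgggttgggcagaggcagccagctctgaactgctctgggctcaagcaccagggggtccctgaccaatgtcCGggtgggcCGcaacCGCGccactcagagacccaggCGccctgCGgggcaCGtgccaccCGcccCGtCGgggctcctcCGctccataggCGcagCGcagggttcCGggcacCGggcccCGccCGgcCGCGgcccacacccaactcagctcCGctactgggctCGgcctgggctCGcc
Cers6 held 23 and Cers2 24 CpG in these 250 bases. In windows that also take in 50 bases after the start, the 9 genes with a RefSeq window had 13 of them, with 4 to 51 CpG and a median of 20, and 11 of the 13 lay above the median of 7 over all 32851 windows. Windows of Cers6 and of Cers2 held 28 and 30 CpG, Sptlc2 19, Cers4 14 and Cers5 20, while Cers2 and Sgms1 also have windows at other starts with as few as 6 and 4. Methylation was not analysed here, and CpG counts describe the sequence only. Asah1 had no window.

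The level of Cers6 separated the genotypes in every liver. It was 23.6, 20.4 and 19.1 CPM in WT replicates 1 to 3 and 12.3, 11.8, 12.1 and 13.2 CPM in TET1 KO replicates 1 to 4. The lowest WT liver was thus above the highest TET1 KO liver, and the TET1 KO livers lay close together (12.4 ± 0.577 CPM, SD, n = 4) compared with WT (21.0 ± 2.30 CPM, SD, n = 3). The log2FC was -0.77 ± 0.13 SE (95% interval -1.06 to -0.47, edgeR adjusted p = 0.0214), which placed Cers6 at rank 101 of the tested genes. An exact two-sided permutation test gave p = 0.0286, the smallest that 3 mice against 4 allow, and Sptlc2 had the same value. Of all tested genes, 22.5% had groups that did not overlap, whether lower or higher. The fold change was negative in all 14 alternative fits and lay between -0.85 and -0.69 with each mouse left out, and 3 of these 7 fits kept the call. It was lost, with an adjusted p of 0.0501, without WT replicate 1, and likewise without WT replicate 2 (0.0897), TET1 KO replicate 2 (0.0582) and TET1 KO replicate 3 (0.0693). The 14 alternatives gave adjusted p from 0.000195 (DESeq2) to 0.0897. In these bulk livers, fewer cells of a type that expresses a gene and less RNA per cell cannot be told apart. The summed level of 6 cholangiocyte markers also differed between the groups without overlap (29.7 to 37.9 CPM in WT and 46.2 to 68.0 CPM in TET1 KO livers). Of the 5 tested, 0 passed in edgeR, 4 were higher at an unadjusted p under 0.05 and DESeq2 called 2. Of all tested genes, 13.6% were higher at that unadjusted p, and DESeq2 called 9.14% in either direction. The 8 stellate cell markers summed to overlapping levels (239.2 to 396.0 CPM in WT and 228.2 to 307.8 CPM in TET1 KO livers), with a median log2FC of -0.10. Col1a1 had a log2FC of -0.96 (adjusted p = 0.0874 in edgeR and 0.0234 in DESeq2) and Col3a1 of -0.99 (0.0853 and 0.0181). Among the others, Colec11 was at -0.21, Dcn at -0.11, Reln at -0.10, Lrat at -0.04 and Des at 0.35. The 7 hepatocyte markers had a median log2FC of -0.07. Apoa1 had a log2FC of 1.10 with no overlap of the groups (adjusted p = 0.0818 in edgeR and 1.67e-06 in DESeq2). The others were at -0.56 (Apob), -0.45 (Cps1), -0.09 (Asgr1), -0.07 (Alb), 0.10 (Ttr) and 0.44 (Serpina1c). The part of these markers in the values reported here was not tested.

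The other ceramide synthases did not follow Cers6. Cers2 was 270.3, 274.8 and 275.5 CPM in WT and 271.9, 288.5, 299.2 and 281.9 CPM in TET1 KO livers. Its log2FC was 0.06 ± 0.12 SE (edgeR adjusted p = 0.769), with a 95% interval of -0.21 to 0.33 that leaves out changes as large as that of Cers6. The sign of this small difference turned to -0.03 with scaling to library size only. Cers4 (ENSMUSG00000008206) was 6.20, 2.98 and 4.19 CPM in WT and 10.2, 6.41, 6.85 and 5.52 CPM in TET1 KO livers, with the groups overlapping at WT replicate 1. Its log2FC was 0.70 ± 0.28 SE (edgeR adjusted p = 0.152), and it was 0.46 without WT replicate 2 and 1.01 without WT replicate 1. Cers5 (ENSMUSG00000023021), the other synthase that uses palmitoyl-CoA, was at the limit of what this depth resolves, at 1.23, 2.11 and 1.27 CPM in WT and 1.25, 2.18, 2.40 and 2.41 CPM in TET1 KO livers. It had 20 to 52 counts in a liver, a log2FC of 0.42 ± 0.32 SE (edgeR adjusted p = 0.412) and a 95% interval of -0.28 to 1.11. The log2FC of Cers5 was 0.26 without WT replicate 1 and 0.72 without WT replicate 2. The remaining family members Cers1 and Cers3 had at most 1 count in a liver. Whether Cers6 differed from each of the other synthases in its response was not tested.

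Levels of the synthases were also compared within each liver, as counts per kilobase of exon, which removes the scaling between libraries. Cers2 made up 94.2% of the summed level of the 4 synthases in WT and 94.5% in TET1 KO livers. The share of Cers6 was 3.81%, 3.29% and 3.07% in WT replicates 1 to 3 and 1.99%, 1.82%, 1.80% and 2.07% in TET1 KO replicates 1 to 4. Relative to Cers2, Cers6 was at 3.60% ± 0.432 (SD, n = 3) in WT and 2.03% ± 0.145 (SD, n = 4) in TET1 KO livers, 0.564 times the WT ratio, and the groups did not overlap. This ratio lay between 0.537 and 0.604 times the WT value with each mouse left out. Cers4 relative to Cers2 was 1.63% ± 0.611 (SD, n = 3) and 2.55% ± 0.810 (SD, n = 4), and Cers5 relative to Cers2 was 0.973% ± 0.311 (SD, n = 3) and 1.24% ± 0.307 (SD, n = 4), both with overlapping groups. Per kilobase, the median level of Cers4 was 1.14 CPM against 2.61 for Cers6 in WT, and 1.81 against 1.56 in TET1 KO livers. In TET1 KO replicate 4, as in the WT livers, Cers4 was below Cers6 (1.85% against 2.07% of the summed level). These ratios describe mRNA only.

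**Figure D2:**
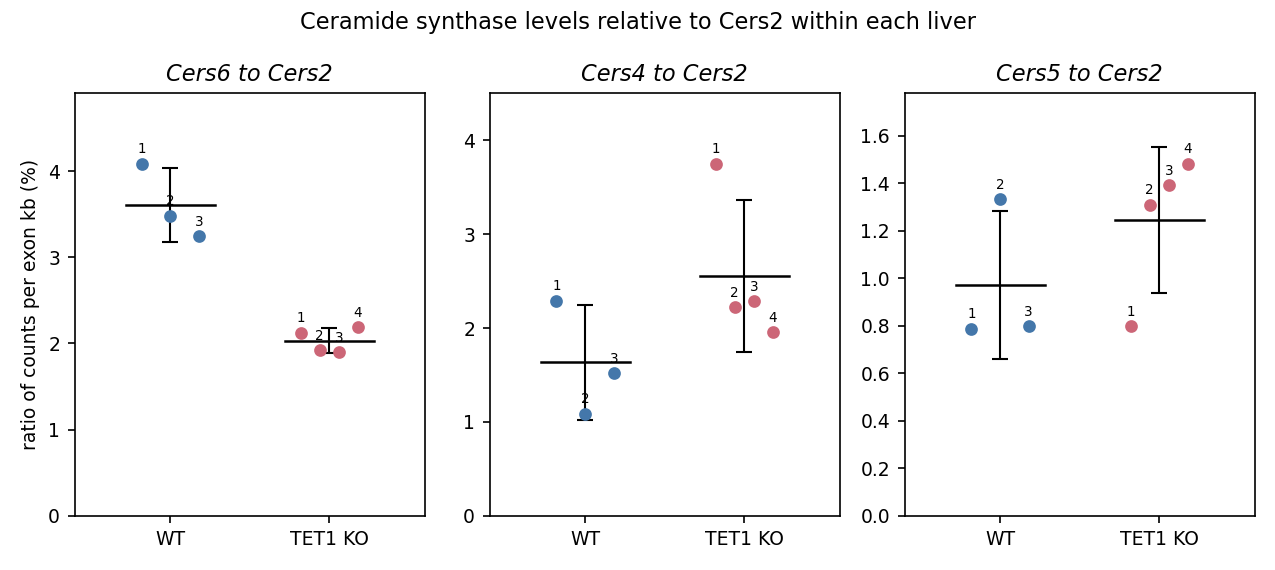
Level of Cers6, Cers4 and Cers5 as a percentage of Cers2 in the same liver (y axis, counts per kilobase of exon, from 0) for WT and TET1 KO (x axis), with points numbered by replicate and the mean and SD drawn. Cers6 lies between 1.90% and 2.19% in TET1 KO and between 3.24% and 4.08% in WT livers, while the groups overlap for Cers4 and Cers5.

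Among the genes of the first step, Sptlc2 (ENSMUSG00000021036) was 18.6, 22.6 and 18.9 CPM in WT and 12.0, 15.4, 14.0 and 15.8 CPM in TET1 KO livers. The groups did not overlap, but the test across all genes did not call it, with a log2FC of -0.49 ± 0.15 SE (edgeR adjusted p = 0.0891). DESeq2 gave an adjusted p of 0.0506, and none of the 14 alternatives reached the threshold (highest 0.338, without WT replicate 2). Its partner Sptlc1 (ENSMUSG00000021468) was 18.6, 21.2 and 20.6 CPM in WT and 19.8, 16.8, 16.8 and 20.4 CPM in TET1 KO livers. The log2FC was -0.12 ± 0.14 SE (edgeR adjusted p = 0.577), with a 95% interval of -0.43 to 0.18, and was -0.19 without WT replicate 1. Per kilobase, Sptlc2 was at 32.2% ± 2.41 (SD, n = 3) of Sptlc1 in WT and 25.3% ± 4.25 (SD, n = 4) in TET1 KO livers, and TET1 KO replicate 2 reached the WT range. Counting genes whose groups did not overlap, 2 of the 10 were lower and 0 higher in TET1 KO livers, where 10.8% and 11.7% of all tested genes were.

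The later enzymes were lower on average in TET1 KO livers but overlapped with WT. Degs1 (ENSMUSG00000038633) was 42.2, 60.1 and 45.8 CPM in WT and 31.4, 38.5, 36.6 and 48.0 CPM in TET1 KO livers, with a log2FC of -0.35 ± 0.17 SE (edgeR adjusted p = 0.215). Sgms1 (ENSMUSG00000040451) was 15.8, 17.0 and 12.7 CPM in WT and 9.27, 9.65, 13.0 and 9.97 CPM in TET1 KO livers. Only TET1 KO replicate 3 reached the WT range of Sgms1, and the log2FC was -0.53 ± 0.17 SE (edgeR adjusted p = 0.0965). Smpd1 (ENSMUSG00000037049) was 33.2, 44.5 and 39.6 CPM in WT and 33.9, 32.2, 28.8 and 37.7 CPM in TET1 KO livers, a log2FC of -0.24 ± 0.14 SE (edgeR adjusted p = 0.311). Asah1 (ENSMUSG00000031591) was 14.9, 21.4 and 18.3 CPM in WT and 10.8, 18.2, 12.3 and 16.5 CPM in TET1 KO livers, a log2FC of -0.33 ± 0.20 SE (edgeR adjusted p = 0.312). For Degs1, Smpd1 and Asah1 neither a difference nor its absence was shown, since the 95% intervals of the log2FC reached from -0.74 to 0.03, from -0.56 to 0.08 and from -0.78 to 0.12. Without WT replicate 2 the log2FC moved to -0.20 in Degs1, -0.14 in Smpd1 and -0.20 in Asah1, and that of Asah1 was -0.22 without TET1 KO replicate 1. The interval of Sgms1, from -0.91 to -0.16, did not include 0, but it is not adjusted for the number of genes tested. The ratio of Asah1 to Smpd1, both lysosomal enzymes, was 33.0% ± 1.19 (SD, n = 3) in WT and 31.1% ± 7.21 (SD, n = 4) in TET1 KO livers.

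The livers differed in how far they followed these averages. WT replicate 2 had the highest level of 6 of the 10 genes, and TET1 KO replicate 1 the lowest level of 4. TET1 KO replicate 4 was the TET1 KO liver closest to the WT mean in 6 of the 10, and its median deviation from the WT mean over the 10 genes was -0.03 on the log2 scale, against -0.44, -0.26 and -0.33 in replicates 1 to 3. For Cers6 this liver was at -0.67, with the others between -0.82 and -0.76.

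**Figure D3:**
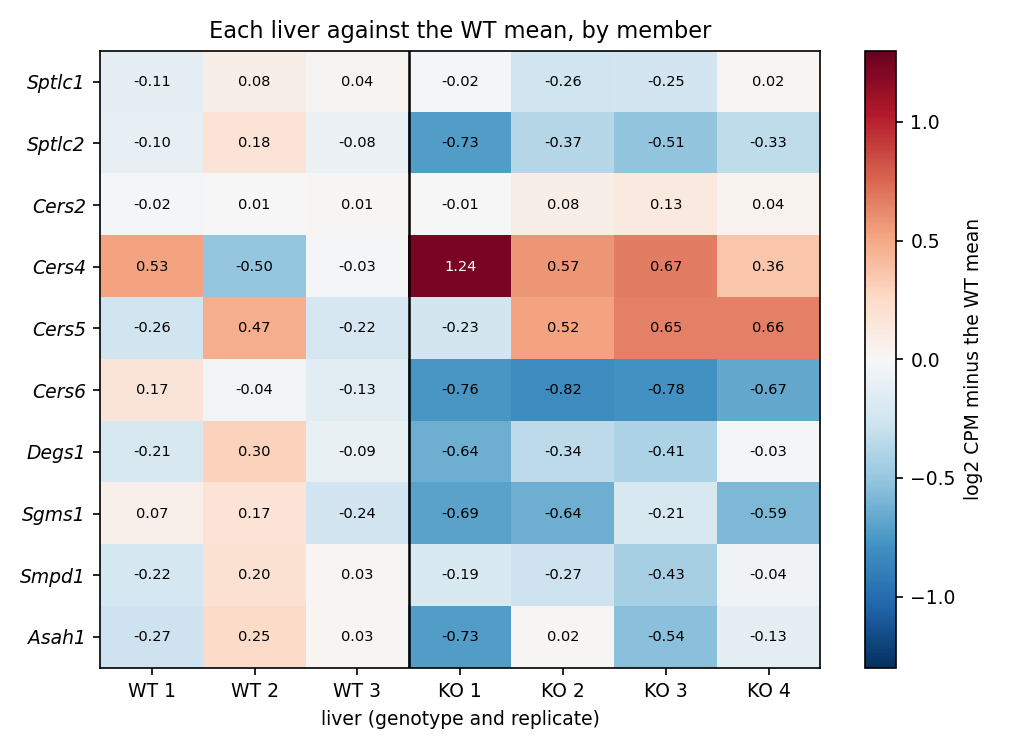
Difference of log2 CPM from the WT mean for each gene (rows) in each liver (columns), in blue where lower and in red where higher, with the value written in each cell. The row of Cers6 is between -0.82 and -0.67 in all 4 TET1 KO livers, the row of Cers2 stays between -0.02 and 0.13 in all 7 livers. In the TET1 KO livers the rows of Sptlc2, Degs1, Sgms1 and Smpd1 are below 0 and that of Cers4 is above 0 throughout, while Sptlc1, Cers5 and Asah1 have both signs.

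Across the 7 livers the order of the levels per kilobase of exon ran from Cers2 (median 75.2 CPM per kilobase) over Degs1 (16.3) and Smpd1 (14.1), whose ranges overlapped, to Sptlc1 (7.55) and Asah1 (4.86), which were each apart from their neighbours. Sptlc2 (1.95), Cers4 (1.69), Cers6 (1.68), Sgms1 (1.23) and Cers5 (0.999) came last, with each range overlapping the next. This order pools the genotypes, and among these last 5 genes the medians gave another order in each, from Cers6 (2.61), Sptlc2 (2.33), Sgms1 (1.53) and Cers4 (1.14) to Cers5 (0.600) in WT, and from Sptlc2 and Cers4 (both 1.81), Cers6 (1.56) and Cers5 (1.08) to Sgms1 (0.952) in TET1 KO livers. These levels rest on exon lengths of GENCODE M1 and not on the annotation used for counting. Of the 50-base words in the coding transcripts of the 10 genes, those of 9 genes matched no other protein-coding gene and 2.69% of those of Cers2 did. By position the RefSeq genes Anxa9, Setdb1 and LOC115489748 overlap Cers2, Frg1 overlaps Asah1, and 1 long non-coding RNA gene overlaps each of Cers6, Sptlc2, Sgms1 and Smpd1. How reads in such regions were assigned is not given in the sources used here.

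A further 69 genes of sphingolipid metabolism were read from the same fit, of which 53 passed the filter on low counts. The other 16 had at most 15 counts in a liver. Of the 53, 1 was lower and 0 were higher at an adjusted p under 0.05, while 14 were lower and 2 higher at an unadjusted p under 0.05, where 12.7% and 13.6% of all tested genes were. DESeq2 called 9 lower and 1 higher, where it called 4.8% and 4.34% of all the genes it tested. Their median log2FC was -0.14. The gene that fell was S1pr1 (ENSMUSG00000045092), a receptor for sphingosine-1-phosphate known from endothelial cells. It was 41.2, 54.3 and 55.4 CPM in WT and 20.4, 33.0, 27.9 and 25.3 CPM in TET1 KO livers, a log2FC of -0.92 ± 0.17 SE (edgeR adjusted p = 0.0280) with no overlap of the groups. The call was lost without WT replicate 2 (adjusted p = 0.143), without WT replicate 3 (0.0671) and without TET1 KO replicate 3 (0.0735). The 7 markers of liver sinusoidal endothelial cells summed to 180.3 to 193.9 CPM in WT and 162.2 to 186.9 CPM in TET1 KO livers, and 0 of them passed the test in edgeR (2 lower at an unadjusted p under 0.05, and 1 called by DESeq2), with log2FC of -1.08 in Lyve1 (adjusted p = 0.0778 in edgeR and 0.0140 in DESeq2), -0.42 in Pecam1, -0.33 in Oit3, -0.08 in Stab2, -0.02 in Clec4g, 0.07 in Fcgr2b and 0.09 in Kdr. The groups did not overlap in Oit3. Spns2, which exports sphingosine-1-phosphate, was 30.9, 21.5 and 22.6 CPM in WT and 48.5, 36.9, 40.8 and 29.4 CPM in TET1 KO livers, a log2FC of 0.64 ± 0.19 SE (adjusted p = 0.0853 in edgeR and 0.0426 in DESeq2).

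The counts of the separate lists that follow are to be read against the same shares of all tested genes, 12.7% lower and 13.6% higher at an unadjusted p under 0.05, and 4.8% lower and 4.34% higher in DESeq2. In the rest of de novo synthesis, 7 of 12 listed genes were tested and 0 passed in edgeR, with a median of -0.40 and 4 lower at an unadjusted p under 0.05, and DESeq2 called 1 lower. Kdsr, the reductase that follows serine palmitoyltransferase, was 24.8, 30.7 and 20.4 CPM in WT and 17.1, 14.2, 16.3 and 18.9 CPM in TET1 KO livers. Its groups did not overlap, and the log2FC was -0.61 ± 0.17 SE (adjusted p = 0.0745 in edgeR and 0.0246 in DESeq2). Rtn4, which encodes the Nogo proteins that bind and restrain serine palmitoyltransferase, had a log2FC of -1.15 ± 0.36 SE (edgeR adjusted p = 0.0913). TET1 KO replicate 4 had 46.2 CPM of Rtn4, within the WT range of 45.6 to 83.4, and the other TET1 KO livers 11.7 to 30.6 CPM. With each mouse left out the adjusted p of Rtn4 ranged from 0.0330, without that liver, to 0.36, without WT replicate 2, and 1 of these 7 fits called it.

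Among ceramidases and the enzymes of sphingosine-1-phosphate, 0 of 12 tested genes passed in edgeR, while 4 were lower at an unadjusted p under 0.05 and DESeq2 called 3 lower. The log2FC was below 0 in 10 of them. The neutral ceramidase Asah2 was 10.4, 19.0 and 14.7 CPM in WT and 4.70, 9.02, 6.70 and 8.63 CPM in TET1 KO livers, so that the groups did not overlap. Its log2FC was -1.02 ± 0.25 SE (adjusted p = 0.0618 in edgeR and 0.00697 in DESeq2), and 6 of 14 alternatives called it. The alkaline ceramidase Acer2 was between 12.0 and 12.7 CPM in WT and between 6.20 and 9.83 CPM in TET1 KO livers, a log2FC of -0.61 ± 0.18 SE (adjusted p = 0.0826 in edgeR and 0.0378 in DESeq2). In the list of sphingomyelin synthases and sphingomyelinases, 0 of 6 tested genes passed in edgeR, 1 was lower at an unadjusted p under 0.05 and DESeq2 called 1 lower. The 2 with the smallest p were Smpdl3a, a relative of acid sphingomyelinase (log2FC -0.73 ± 0.20 SE, adjusted p = 0.0739 in edgeR and 0.0190 in DESeq2), and the neutral sphingomyelinase Smpd4 (log2FC 0.23 ± 0.13 SE, edgeR adjusted p = 0.286).

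In glycosphingolipid synthesis, 0 of 9 tested genes passed in edgeR, while 2 were lower at an unadjusted p under 0.05 and DESeq2 called 1 lower. Gal3st1, which makes sulfatide, came closest, with 52, 38 and 19 counts in WT and 8, 4, 14 and 8 counts in TET1 KO livers, and a log2FC of -1.85 ± 0.42 SE (adjusted p = 0.0502 in edgeR and 0.00961 in DESeq2). Ugcg, which makes glucosylceramide from ceramide, had a log2FC of -0.37 ± 0.16 SE (edgeR adjusted p = 0.182). In lysosomal breakdown, 0 of 12 tested genes passed in edgeR, with 2 lower and 1 higher at an unadjusted p under 0.05, DESeq2 called 2 lower, and the median log2FC was -0.02. Hexa, a subunit of β-hexosaminidase, was 41.8, 47.0 and 42.8 CPM in WT and 18.3, 23.0, 21.4 and 37.1 CPM in TET1 KO livers, a log2FC of -0.81 ± 0.21 SE (adjusted p = 0.0669 in edgeR and 0.0106 in DESeq2), for which 1 of the 7 fits without a mouse gave a call, with adjusted p from 0.00693 without TET1 KO replicate 4 to 0.273 without WT replicate 2. Psap, the precursor of the saposins that help lysosomal hydrolases, was 338.0, 475.6 and 384.3 CPM in WT and 168.2, 288.0, 219.5 and 336.0 CPM in TET1 KO livers, a log2FC of -0.66 ± 0.23 SE (adjusted p = 0.108 in edgeR and 0.0435 in DESeq2).

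**Figure D4:**
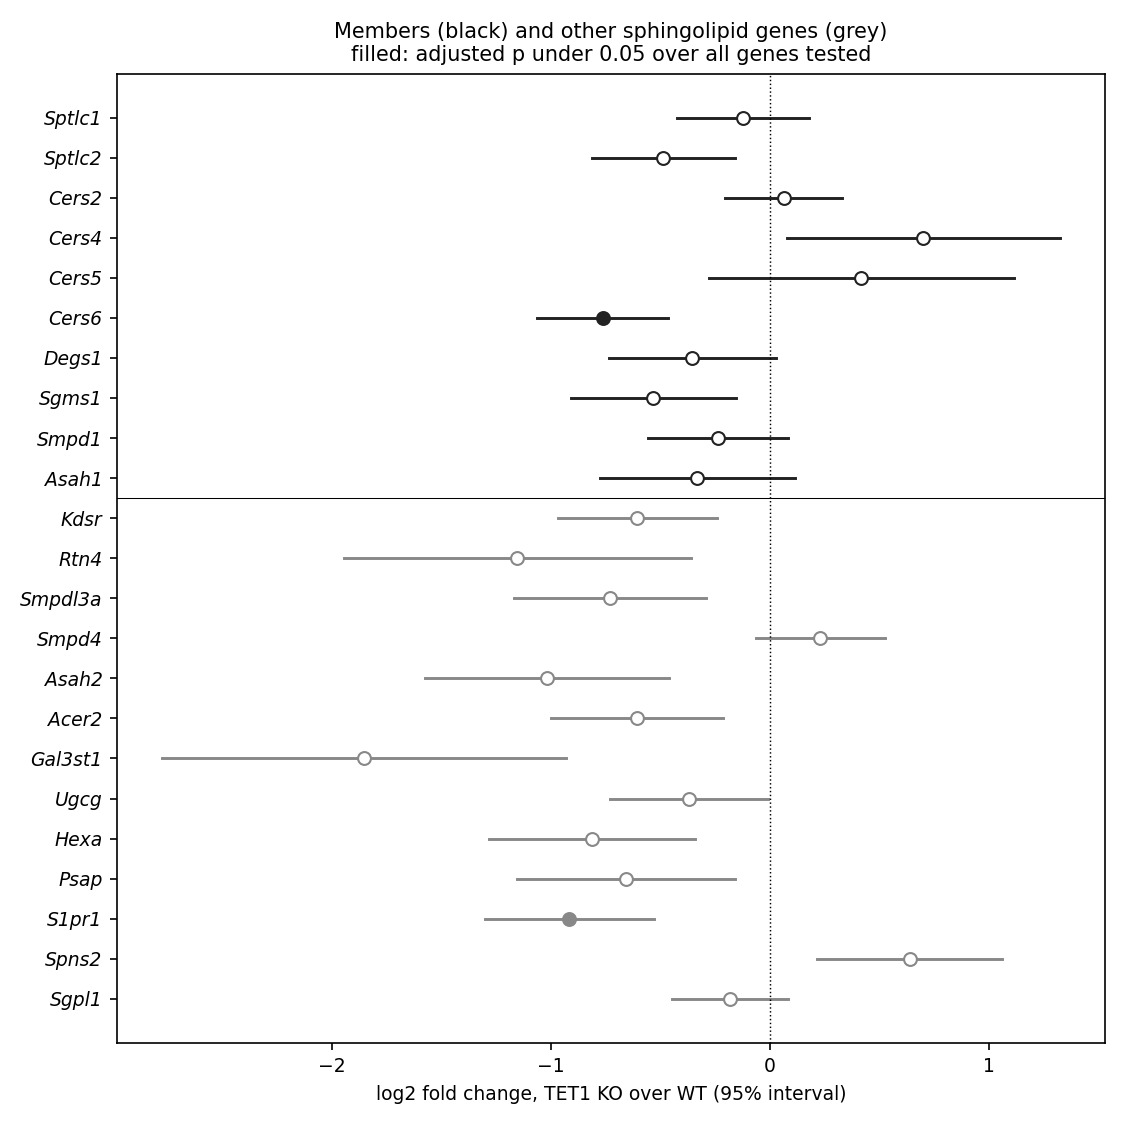
Log2FC of TET1 KO over WT (x axis) with its 95% interval for the 10 genes (black) and 13 further named sphingolipid genes (grey), one per row, filled where the adjusted p was under 0.05. Cers6 at -0.77 and S1pr1 at -0.92 are the only filled points, and Cers4 and Spns2 lie to the right of 0 at 0.70 and 0.64.

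Psap, Sgpl1 and Smpdl3a lie on chromosome 10, the chromosome of Tet1, at distances of 2.5, 1.66 and 4.99 megabases (GRCm38.p6), and the TET1 KO line named in the methods carries 129S4 in its strain name. Further from Tet1 on this chromosome are the listed genes Smpd2 (log2FC 0.16), Ormdl2 (0.18), B4galnt1 (0.06) and Plpp2 (-0.35). Sgpl1, the lyase that ends sphingosine-1-phosphate breakdown, was 55.8, 54.9 and 48.8 CPM in WT and 44.6, 49.2, 49.8 and 43.4 CPM in TET1 KO livers, a log2FC of -0.19 ± 0.12 SE (edgeR adjusted p = 0.340). The part of position near the knocked-out gene in these values was not tested. None of the 10 genes followed above is on this chromosome.

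**Figure D5:**
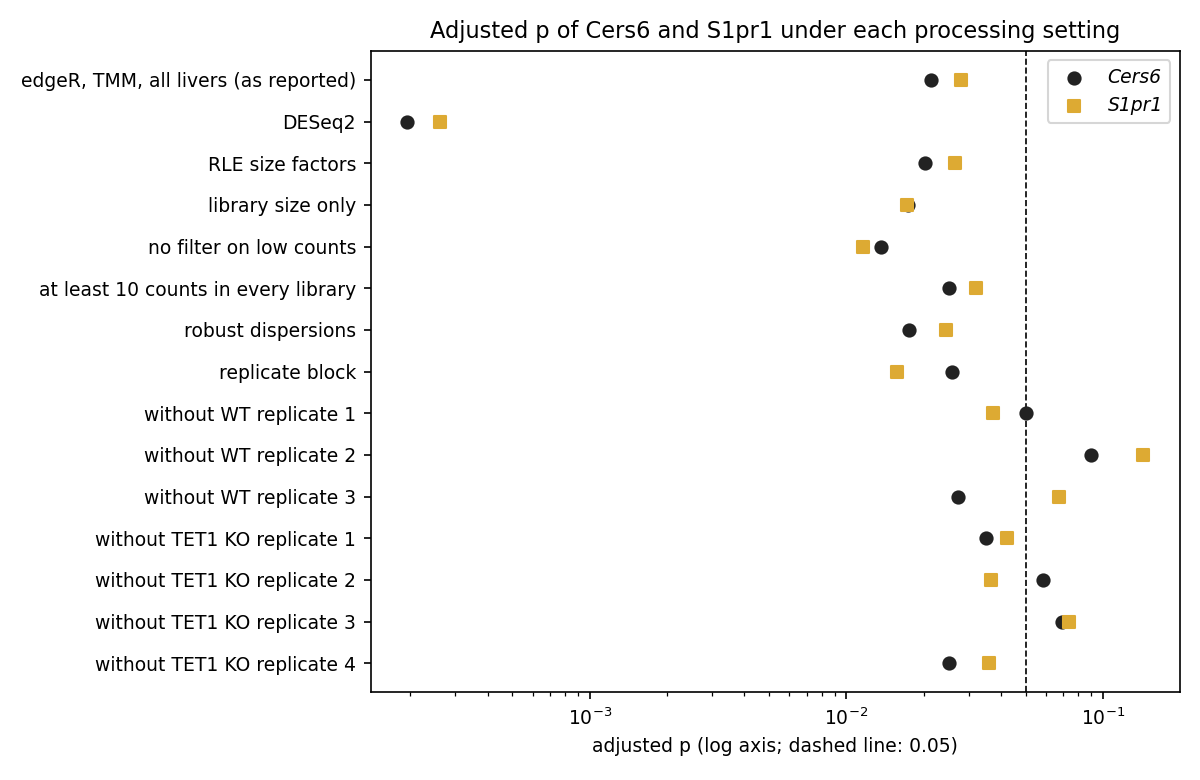
Adjusted p of Cers6 and S1pr1 (x axis, log scale) under the reported fit and each of the 14 alternatives (rows), with a dashed line at 0.05. Both are left of the line in the 8 fits at the top, of which the replicate block takes no genotype contrast from TET1 KO replicate 4, and Cers6 moves to its right in 4 and S1pr1 in 3 of the 7 fits that leave out a mouse.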

How the data were processed

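RNA-seq of 3 WT and 4 TET1 KO livers was analysed. For each mouse the authors deposited raw counts of reads per Ensembl gene, not normalized. The submitters' processing notes name Trimmomatic 0.36, GSNAP, featureCounts 1.5.3 and GRCm38, without settings, so the handling of strand and of reads with several matches is not known here. Tables were joined by Ensembl identifier, and 5 repeated entries were left out of 51431. The fits used edgeR 4.0.16 under R 4.3.3 (filterByExpr, TMM, glmQLFit with legacy = FALSE, no covariates), with Benjamini-Hochberg adjustment over the 14754 genes tested, with a threshold of 0.05. DESeq2 1.42.0 was the alternative test. CPM were scaled by TMM, with a prior count of 2 on the log2 scale. Standard errors and 95% intervals were derived from the F statistic. The scripts were tested on simulated data. No pair of libraries of a genotype agreed within sampling noise (lowest chi-square per degree of freedom 27.4). The labels do not say whether mice shared litters or batches, and p-values judge the genotype difference against the spread between these mice.

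The 10 genes and the gene lists were chosen with earlier results of these data known. Named besides the 10 were, from each list, the called genes and the 2 with the smallest p, and Sgpl1, Psap and Tet1. Cers1, Cers3, Smpd2, Ormdl2, B4galnt1 and Plpp2 were named outside this rule, after their values were seen. So were the 7 hepatocyte markers, the 7 endothelial markers and, of the stellate cell markers, Col1a1, Col3a1, Colec11, Dcn, Reln, Lrat and Des. Lists of markers of 10 cell types were also read, and of the 50 marker genes tested, 0 passed in edgeR, with 6 lower and 6 higher at an unadjusted p under 0.05 and 6 called by DESeq2. Of all tested genes, 12.7% were lower and 13.6% higher at that unadjusted p, and DESeq2 called 9.14% in either direction. Coordinates and promoters are of GRCm38.p6 (RefSeq), and exon lengths of GENCODE M1 (NCBIM37). Figures were drawn with matplotlib 3.10.9. Alternatives were DESeq2, RLE size factors, library size only, other filters on low counts, a replicate block, robust dispersions, and leaving out each mouse.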

Additional observations from a re-analysis of the deposited data

How the results depend on the processing

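The direction of the log2 fold change was kept for 22 of the 23 named genes in every alternative run for them, which were 14 for each gene but 13 for Gal3st1, not tested at 10 counts in every library. Cers2 turned to -0.0334 with scaling to library size only. The number of the 10 genes called was 1 in the reported fit, 2 with the replicate block, and between 0 and 1 with each mouse left out. Of the other sphingolipid genes 1 was called, against 10 in DESeq2, 2 with RLE size factors, 4 with no filter on low counts, 3 with library size only, 2 with robust dispersions, 7 with the replicate block, and between 0 and 7 with each mouse left out, the highest without TET1 KO replicate 4. Over all genes 129 were higher and 169 lower, against 633 and 699 in DESeq2, 245 and 347 with no filter, 670 and 656 with the replicate block, and 312 lower with library size only. With each mouse left out the counts lay between 16 and 427 higher and between 22 and 464 lower, the lowest without WT replicate 2 and the highest without TET1 KO replicate 4. The cause of these shifts was not tested. Deviations of same-numbered livers from their group means correlated at 0.209, -0.123 and -0.0964 for replicates 1 to 3. So few livers cannot show whether the numbers pair the mice, and the labels do not say. No WT liver carries number 4, so the replicate block also takes TET1 KO replicate 4 out of the contrast, and its counts combine both changes. Without that liver and with no block, the log2 fold change was -0.80 in Cers6 and 0.81 in Cers4, and under the block it was -0.79 and 0.84. The block added Cers4 to the calls, with a log2 fold change of 0.84 and an adjusted p of 0.0446 (0.102 without TET1 KO replicate 4), and not every liver correlated best with its own number. Scaling to library size only moved the median log2 fold change of all genes from 0.01 to -0.08.

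With 3 mice against 4, changes of the size fitted for Sptlc2, Sgms1, Kdsr or Asah2 lay near the threshold, and a missing call does not show that these genes stayed the same. Among the 23 named genes the standard error was largest in Gal3st1 (0.42), which has few counts, and next in Rtn4 (0.36), which does not.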
